A study of Mus musculus with 40 samples.

Results

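The comparison described here sets rib callus tissue of immature mice against that of mature mice at 2dpr (2 days after resection of a segment of rib), across all genes. It takes the 4 immature and the 4 mature libraries of that stage, 8 of the 40 samples of the series, and 21203 genes. All mice were wild type, and the study's methods describe them as female C57BL/6 animals. Immature mice were 7 weeks old and mature mice over 10 months old, and the labels name no treatment beyond the operation. RNA came from whole pieces of callus, in which bone, marrow and the muscle between the ribs lie together, and the labels do not say whether tissue of several mice was pooled. The study's methods place baseline before the resection, whereas the labels of the baseline libraries say the tissue was taken afterwards, so what a baseline value stands for is uncertain. The other libraries (baseline, 0, 5 and 14dpr, 39 libraries in all) entered the fit and shared its estimate of the replicate spread. In such bulk tissue, fewer cells of a type and less RNA per cell cannot be told apart. The labels name replicates without saying what separates them, so p-values measure the spread between these libraries.

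A cut rib injures several tissues at once. The bone end and its periosteum form callus, the muscle fibres around it degenerate and are rebuilt by satellite cells, tendon-like and elastic connective tissue is torn, and neutrophils, then monocytes and macrophages, clear debris. Stretched or damaged muscle fibres switch on a small set of stress genes, among them Ankrd1 and Cryab, while regenerating fibres transiently use an embryonic myosin, Myh3. Fat cells lie between the muscles, and those that make new fatty acids express Fasn and Thrsp.

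One library stood apart before any comparison. At the lowest depth of the 8 libraries, mature replicate 3 had reads on 14213 genes, and the other 7 had reads on 19889 to 20241 genes at that same depth of 7884435 counts. Of the 3565 genes that averaged 1 to 5 CPM (read counts scaled to a common depth with TMM factors) in the other libraries, 1776 (49.8%) had 0 reads in mature replicate 3. In each of the other 7 libraries that share was between 0.165% and 0.632%. A value of 0 in this library therefore occurred for many genes at levels at which the remaining libraries had reads. Many of the counts below are also given without it. Total counts ran from 8160883 to 11561436 in immature and from 7884435 to 20936227 in mature libraries (two-sided exact permutation test, p = 0.343). A second library went against the methods. Immature replicate 3 held 434 reads of Kdm5d and 480 of Eif2s3y, both on the Y chromosome, and the other 7 libraries held 0 of either. The same library had 6892 reads of Xist, the RNA of the inactive X chromosome, and 0 reads of the Y-linked genes Uty and Ddx3y.

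**Figure D1:**
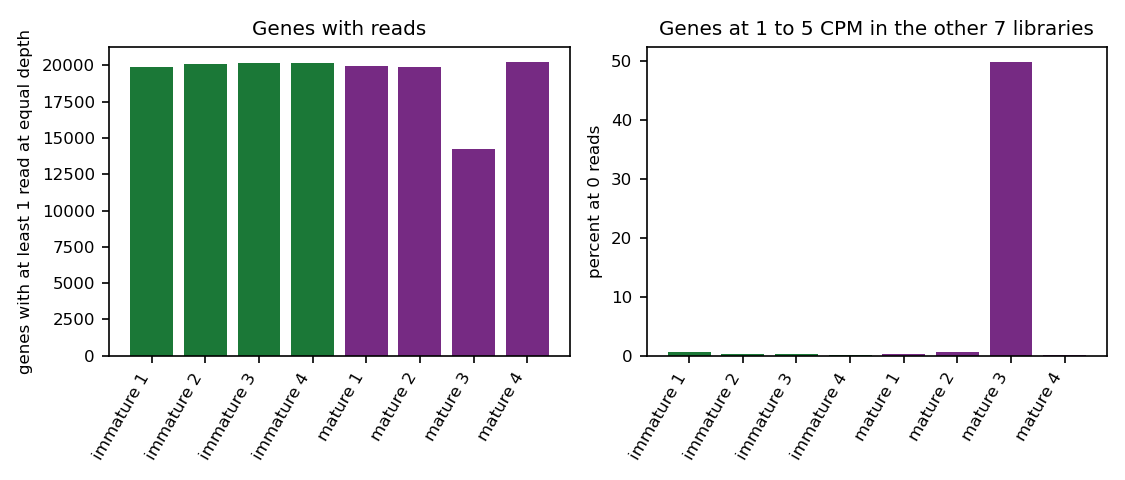
The left panel shows, for each 2dpr library (immature in green, mature in purple), the number of genes with at least 1 read after scaling to equal depth. The right panel shows the percent of genes at 0 reads among those that averaged 1 to 5 CPM in the other 7 libraries. Mature replicate 3 had reads on 14213 genes, and 49.8% of the genes in the right panel were at 0 in it.

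At 2dpr, 4 of 20 muscle stress genes were lower in immature mice and 1 was higher. In the other direction, 5 of 20 tendon genes and 4 of 23 elastic fibre genes were higher. So were 2 of 20 genes of fatty acid and triglyceride synthesis and 8 of 18 imprinted genes. Without mature replicate 3 the synthesis count fell to 1 and the imprinted count to 2. By edgeR's quasi-likelihood test, 133 genes passed an adjusted p of 0.05 (0.627% of the genes tested), 97 higher in immature mice (0.457%) and 36 lower (0.170%). Of these 133 genes, 121 had all immature values on one side of all mature values, against 4.99% of all genes tested. The genes were called from these same libraries, so this contrast is largely built in and lends the calls no weight. Without mature replicate 3, 71 genes were higher (0.335%) and 48 lower (0.226%). Both fits called 73 genes, 51 higher and 22 lower, which is 54.9% of the first list and 61.3% of the second. Of the 60 genes called only with mature replicate 3, 46 were higher in immature mice. The median log2 difference (immature minus mature) over all genes was 0.04 with mature replicate 3 and -0.02 without it. At an unadjusted p under 0.05, 6.50% of genes were higher and 6.76% lower, and 4.66% and 4.54% without mature replicate 3. Other single libraries moved the count more. The fit called 53 genes without immature replicate 1, 27 without immature replicate 4, and 286 without mature replicate 2. Without immature replicate 3, which held the Y-linked reads, it called 109 genes, 83 higher and 26 lower. Of the 133 genes, 24 were called whichever of the 8 libraries was left out, 17 higher and 7 lower.

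**Figure D2:**
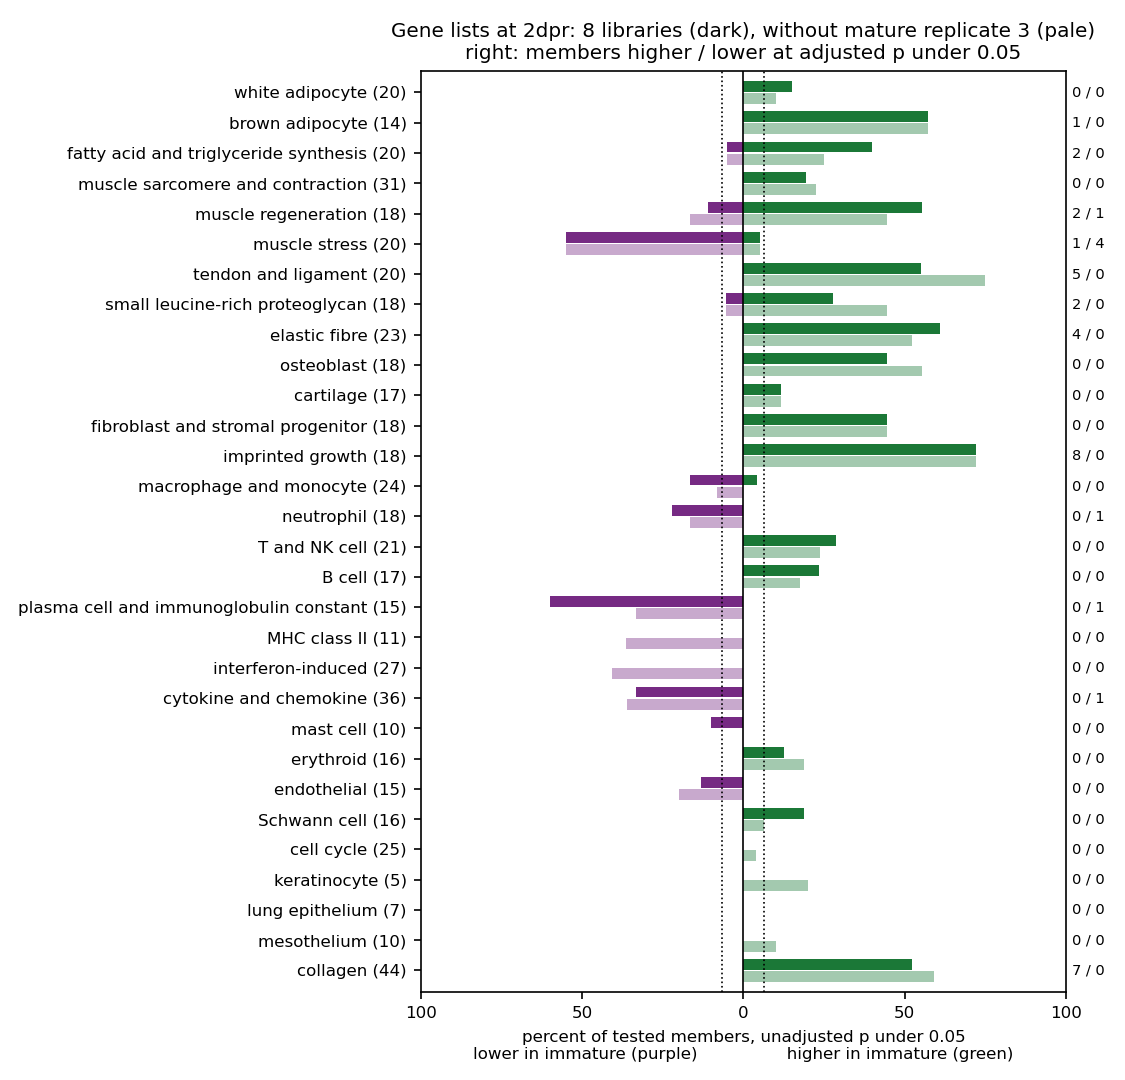
Bars give the percent of each list's tested members (number in brackets) that were higher (green, to the right) or lower (purple, to the left) in immature mice at an unadjusted p under 0.05. Dark bars are all 8 libraries, pale bars leave out mature replicate 3, dotted lines mark the share over all genes, and the figures at the right edge count members higher and lower at an adjusted p under 0.05. Muscle stress, cytokine and immunoglobulin lists lie to the left, and imprinted, elastic fibre, tendon and collagen lists to the right.

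The promoters of 3 genes on which the muscle and fat results turn are printed here from RefSeq (GRCm38.p6). Each is the 250 bases before the start that RefSeq gives. The gene positions given elsewhere in the text come from another annotation, GENCODE. By that annotation Ankrd1 starts farther upstream, and its window lies inside the gene. Thrsp and Fasn rose together in immature mice and Ankrd1 had the smallest adjusted p of all genes. Capitals mark matches, on either strand, to the CCAAT box and to CATTCC, the core of the M-CAT element of muscle genes. The windows were also searched for TATAAA and CACGTG, which are in none of the 3.
Thrsp, chr7:97417551-97417800, minus strand: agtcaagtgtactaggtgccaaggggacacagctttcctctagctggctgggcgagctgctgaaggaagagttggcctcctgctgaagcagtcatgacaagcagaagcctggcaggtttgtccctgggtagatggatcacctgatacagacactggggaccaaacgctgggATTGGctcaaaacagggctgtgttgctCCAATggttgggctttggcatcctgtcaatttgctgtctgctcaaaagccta
Fasn, chr11:120824548-120824797, minus strand: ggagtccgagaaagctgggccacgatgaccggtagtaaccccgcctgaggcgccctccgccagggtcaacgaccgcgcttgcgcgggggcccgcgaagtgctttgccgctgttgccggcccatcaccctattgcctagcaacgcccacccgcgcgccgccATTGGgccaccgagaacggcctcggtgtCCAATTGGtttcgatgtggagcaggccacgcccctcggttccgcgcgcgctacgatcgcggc
Ankrd1, chr19:36119845-36120094, minus strand: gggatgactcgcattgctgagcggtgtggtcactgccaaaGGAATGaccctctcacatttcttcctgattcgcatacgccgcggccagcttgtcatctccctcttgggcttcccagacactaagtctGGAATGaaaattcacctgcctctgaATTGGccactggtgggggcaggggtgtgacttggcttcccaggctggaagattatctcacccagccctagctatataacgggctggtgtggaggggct
CCAAT was in all 3 windows, and 33.8% of the 32851 RefSeq windows hold it. In the Fasn window 2 of its 3 matches overlap, one on each strand. CATTCC was only in the Ankrd1 window among the 3, with 2 matches, and 12.6% of all windows hold it. Of the fatty acid and triglyceride synthesis genes with a window, 12 of 17 held CCAAT, and of the muscle stress genes with a window, 6 of 16 held CATTCC. Among muscle stress genes with a window 4 of 16 held CCAAT, and 3 of 17 such synthesis genes held CATTCC. Of all called genes with a window, 36.6% of those higher and 38.1% of those lower held CCAAT, and 16.9% and 19% held CATTCC. A gene with several windows counted as holding a motif if any of them did. The counts of genes are therefore not on the same footing as the shares of single windows. These matches describe letters in a window and not binding.

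The muscle stress list held the gene with the smallest adjusted p, Ankrd1. Of its 20 genes, 4 fell past the threshold (Ankrd1, Cryab, Mustn1 and Trim63), 1 rose (Sln) and 15 did not pass. The counts were the same without mature replicate 3, 11 members were lower at an unadjusted p under 0.05 in both fits, and the list's median log2 difference was -0.64. Their summed level ran from 2314 to 4104 CPM in immature and from 4438 to 7061 CPM in mature libraries, without overlap. By the mean log2 level of the list the groups overlapped, with mature replicate 3 below immature replicates 1 and 3. The other mature libraries lay above every immature one by that mean. The list gave 2 calls in all without immature replicate 4 and 3 without mature replicate 4. Ankrd1 encodes a titin-associated protein that damaged and stretched fibres make in quantity. It measured 111, 88.6, 84.8 and 62.1 CPM in immature replicates 1 to 4 and 257, 229.7, 273 and 341 CPM in mature replicates 1 to 4. Every mature library lay above every immature one. The log2 difference was -1.67 ± 0.22 (SE, n = 4 and 4), adjusted p = 9.97e-05, and it was between -1.81 and -1.54 with any single library left out. Ankrd1 (chromosome 19, 36111961 to 36120099, GRCm38) was also among only 4 genes called when the 8 libraries were fitted alone (adjusted p = 0.0225).

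Cryab, the small heat shock protein that binds unfolded proteins of the sarcomere, measured 393, 328, 367 and 228 CPM in immature and 795, 595, 616 and 976 CPM in mature libraries. Its log2 difference was -1.18 ± 0.23 (adjusted p = 0.00982), and the call was lost without immature replicate 4. Mustn1, a small nuclear protein of muscle and bone, measured 127, 130.2, 151 and 75.7 CPM in immature and 249.9, 202, 144 and 875 CPM in mature libraries. These Mustn1 groups overlapped, and mature replicate 4 was far above the rest. The Mustn1 log2 difference was -1.61 ± 0.32 (adjusted p = 0.00982), and it lost its call without mature replicate 4, when it was -0.72, or without immature replicate 4.

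Trim63, the muscle ubiquitin ligase MuRF1 that marks sarcomere proteins for breakdown, measured 78.5, 56.7, 57.8 and 39.0 CPM in immature and 98.6, 159.9, 81.0 and 278 CPM in mature libraries. The groups did not overlap, but the lowest mature value lay close to the highest immature one. The log2 difference came to -1.41 ± 0.32 (adjusted p = 0.0255), and 4 of the 8 fits that left out a library (immature replicates 2, 3 and 4, and mature replicate 4) did not call it. Among the members not called, Nmrk2, a kinase of NAD synthesis in muscle, measured 8.21 to 19.05 CPM in immature and 33.3 to 56.9 CPM in mature libraries, with an adjusted p of 0.109. Rrad, a small GTPase of muscle that was not on the list and was chosen after its values were seen, measured 61.4, 65.2, 44.98 and 41.2 CPM against 152, 103, 60.8 and 278 CPM. Its log2 difference of -1.48 ± 0.27 (adjusted p = 0.00522) stayed past the threshold with any library left out.

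Sln was the stress-list member that went the other way. It encodes sarcolipin, a small inhibitor of the calcium pump of the sarcoplasmic reticulum. Sln measured 22.5, 21.2, 30.4 and 15.0 CPM in immature and 5.37, 3.205, 1.89 and 9.67 CPM in mature libraries, without overlap. The log2 difference was 2.09 ± 0.40 (adjusted p = 0.00829), and 1.84 without mature replicate 3.

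Genes of muscle regeneration differed in both directions. Of 18, Myh3 and Ncam1 rose, Myf6 fell, and 15 did not pass, with 10 higher and 2 lower at an unadjusted p under 0.05 and a median log2 difference of 0.74. Without mature replicate 3, only Ncam1 passed, and 8 were higher and 3 lower at an unadjusted p under 0.05. Myh3, embryonic myosin heavy chain, measured 49.8, 37.0, 59.0 and 87.9 CPM in immature and 12.6, 33.5, 6.88 and 13.5 CPM in mature libraries. The lowest immature library was just above the highest mature one. The gene's log2 difference was 1.81 ± 0.41 (adjusted p = 0.0258), and 1.57 without mature replicate 3 (adjusted p = 0.0898). The Myh3 call was also lost without immature replicate 4, mature replicate 1 or mature replicate 4. Ncam1, an adhesion molecule of satellite cells, denervated fibres and nerve, measured 65.7, 61.4, 72.6 and 81.8 CPM against 36.3, 50.2, 44.1 and 26.0 CPM. On the log2 scale the difference was 0.85 ± 0.18 (adjusted p = 0.0173), and it was not called without immature replicate 4, mature replicate 1 or mature replicate 4. Myf6, the myogenic factor of mature fibres, measured 19.9, 19.02, 14.8 and 10.2 CPM in immature and 22.6, 35.5, 32.6 and 49.96 CPM in mature libraries (log2 difference -1.14 ± 0.28, adjusted p = 0.0428). Myf6 passed in only 2 of the 8 fits that left out a library, those without mature replicate 1 or 2.

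The contractile apparatus itself gave 0 calls. Of 31 sarcomere and contraction genes, edgeR called 0, DESeq2 called 2 and limma voom with sample weights called 4, all higher in immature mice, and 6 were higher and 0 lower at an unadjusted p under 0.05. The summed level of these genes ran from 20999.6 to 33610 CPM in immature and from 17554 to 34466 CPM in mature libraries, so the groups overlapped. Adding the mean log2 level of this list to the model as a covariate gave 286 calls in all and 9 muscle stress genes lower in immature mice. Myh2, the myosin of fast oxidative fibres, rose only without mature replicate 3 (log2 difference 1.32, adjusted p = 0.0353, against 0.96 and 0.131 with it). Mb, myoglobin, which was on none of the lists and was chosen after its values were seen, measured 352, 201, 357 and 312 CPM in immature and 88.1, 129, 182 and 159.7 CPM in mature libraries (log2 difference 1.13 ± 0.28, adjusted p = 0.0469). It kept that call in only 2 of the 8 fits that left out a library.

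Some genes of fatty acid synthesis were higher in immature mice, and no white adipocyte marker passed the test. Of 20 genes of fatty acid and triglyceride synthesis, Thrsp and Fasn rose and 18 did not pass, with 8 higher and 1 lower at an unadjusted p under 0.05 and a median log2 difference of 0.47. Without mature replicate 3, only Thrsp passed, and 5 were higher and 1 lower at that unadjusted p. Thrsp, a nuclear protein that follows lipogenic activity, measured 36.0, 27.2, 19.01 and 57.7 CPM in immature and 4.13, 4.94, 2.66 and 4.12 CPM in mature libraries. The 2 groups were far apart. Its log2 difference was 3.12 ± 0.53 (adjusted p = 0.00235), 2.99 without mature replicate 3, and it was called whichever library was left out and in the fit of the 8 libraries alone. Fasn, fatty acid synthase, measured 453, 485, 401 and 939.7 CPM against 120.4, 195, 97.7 and 99.4 CPM. Immature replicate 4 was highest, and the other 3 immature libraries still lay above all mature ones. The log2 difference came to 2.15 ± 0.51 (adjusted p = 0.0368), and 2.04 without mature replicate 3 (adjusted p = 0.104). Fasn was also not called without immature replicate 1 or 4, or without mature replicate 1 or 4. Gpd1, which makes glycerol 3-phosphate for triglycerides and was chosen after its values were seen, measured 90.7, 90.2, 152 and 289.8 CPM against 39.9, 41.9, 17.8 and 43.5 CPM (log2 difference 2.12 ± 0.41, adjusted p = 0.00927, and 1.90 without mature replicate 3, adjusted p = 0.0354).

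Among 14 brown fat genes, Cidea passed with mature replicate 3 and 0 passed without it. In the fit of all libraries Cidea passed and 13 did not, while 8 were higher and 0 lower at an unadjusted p under 0.05, with and without mature replicate 3, and the median log2 difference was 1.16. Cidea, a lipid droplet protein, measured 1.99, 3.94, 16.9 and 40.4 CPM in immature and 0, 0.520, 0 and 0.833 CPM in mature libraries. The gene's log2 difference was 5.23 ± 1.20 (adjusted p = 0.0304), and 4.93 without mature replicate 3 (adjusted p = 0.0819), and the call was also lost without immature replicate 4 or mature replicate 1. Ucp1, the uncoupling protein that defines brown and beige fat, measured 1.26, 4.95, 76.0 and 136 CPM against 0.743, 0.693, 0 and 0.694 CPM. Immature replicates 3 and 4 carried nearly all of both genes, and Ucp1 did not pass (log2 difference 6.53 ± 1.84, adjusted p = 0.0887). Of 20 white adipocyte genes, edgeR called 0, and so did DESeq2 and limma voom, with 3 higher and 0 lower at an unadjusted p under 0.05. Adipoq, adiponectin, measured 77.2 to 130.2 CPM in immature and 84.0 to 103 CPM in mature libraries (log2 difference 0.14 ± 0.29). Across the white adipocyte list, 15 of 20 log2 differences were above 0 (median 0.25, and 0.14 without mature replicate 3). Its mean log2 level ran from 5.52 to 5.91 in immature and from 4.67 to 5.51 in mature libraries. These ranges did not overlap, but the lowest immature value lay close to the highest mature one. Immature replicate 4 had the highest mean log2 level of both the brown fat and the synthesis list, while immature replicate 3 was the next highest for brown fat and the lowest immature library for synthesis. The part of fat cell content in these results was not tested.

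**Figure D3:**
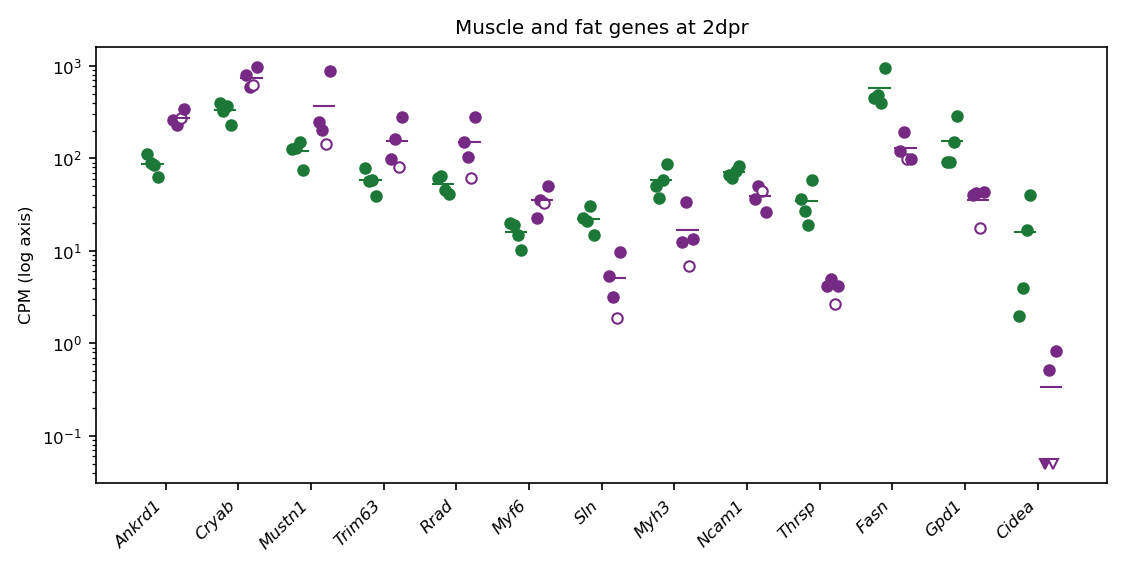
Each point is the CPM (log axis) of 1 library, immature in green and mature in purple, with mature replicate 3 open and the group mean as a bar. Triangles at the bottom mark 0 reads. Ankrd1, Cryab and Myf6 were higher in every mature library, and Thrsp, Fasn, Gpd1 and Cidea in every immature library.

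Some tendon genes were higher in immature mice. Of 20 tendon and ligament genes, Kera, Cilp2, Tnmd, Chodl and Col14a1 rose and 15 did not pass, the same 5-gene count held without mature replicate 3, and 18 of the 20 log2 differences were above 0 (median 0.60). Without mature replicate 3, 15 of the 20 were higher at an unadjusted p under 0.05, and 11 with it. Leaving out other libraries gave between 2 and 4 calls, the lowest without immature replicate 4. Col14a1 lost its call whenever any of these other libraries was left out. Kera, keratocan, a proteoglycan that spaces collagen fibrils, measured 3.56, 1.24, 1.59 and 1.97 CPM in immature and 0.0826, 0.173, 0 and 0.231 CPM in mature libraries. On the log2 scale the difference was 3.76 ± 0.59 (adjusted p = 0.00107), and 3.50 without mature replicate 3. Tnmd, tenomodulin, a membrane protein of tenocytes, measured 13.4, 7.43, 5.78 and 10.6 CPM against 1.65, 3.72, 4.66 and 0.278 CPM (log2 difference 1.98 ± 0.40, adjusted p = 0.0123), and its call was lost without immature replicate 1 or 4. Cilp2, a secreted cartilage and tendon protein, measured 7.33, 2.93, 2.26 and 6.85 CPM against 0.330, 0.780, 0 and 0.231 CPM (log2 difference 3.79 ± 0.70, adjusted p = 0.00515). Scx, the transcription factor that specifies tendon, did not pass and measured 4.86 to 9.18 CPM in immature and 0 to 9.30 CPM in mature libraries (log2 difference 0.27 ± 0.50, and -0.12 without mature replicate 3). Of 18 small leucine-rich proteoglycans, Kera and Podnl1 rose in both fits and 16 did not pass.

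Some elastic fibre genes were higher in immature mice, led by Fbn2. Of 23, Fbn2, Eln, Mfap4 and Mfap2 rose and 19 did not pass, 4 were also called without mature replicate 3, and 14 were higher and 0 lower at an unadjusted p under 0.05 (median log2 difference 0.54). Fbn2, fibrillin 2, the microfibril protein of developing tissue, measured 40.6, 38.4, 42.6 and 63.4 CPM in immature and 7.19, 11.8, 11.7 and 4.35 CPM in mature libraries. The lowest immature value was above every mature value by a wide margin. Its log2 difference was 2.43 ± 0.35 (adjusted p = 3.41e-04), and 2.60 without mature replicate 3. Eln, elastin (chromosome 5, 134702593 to 134747323), measured 222, 276, 252 and 257 CPM against 85.4, 140.1, 86.9 and 44.6 CPM (log2 difference 1.497 ± 0.31, adjusted p = 0.0148). Mfap4, a microfibril-associated protein, measured 36.8, 23.3, 20.4 and 31.2 CPM against 11.3, 15.2, 7.66 and 4.76 CPM (log2 difference 1.53 ± 0.25, adjusted p = 0.00140). The list gave 2 calls without immature replicate 4 and 3 without immature replicate 1. Lox, which cross-links elastin and collagen, did not pass (log2 difference 0.15).

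In the fit of all libraries, 7 of 44 collagen genes rose (Col1a2, Col3a1, Col6a1, Col6a2, Col6a6, Col14a1 and Col15a1) and 0 fell. Only Col14a1 passed without mature replicate 3, and 0 to 10 passed with other libraries left out (0 without immature replicate 1, immature replicate 4 or mature replicate 4, and 10 without mature replicate 2). Col14a1 itself lost its call whenever any of those other libraries was left out, and in the fit of the 8 libraries alone. At an unadjusted p under 0.05, 23 were higher, and 26 without mature replicate 3. Col1a2, a chain of type I collagen, measured 5591, 4568, 5106 and 7521 CPM in immature and 2520.1, 2880.5, 2454 and 1576 CPM in mature libraries (log2 difference 1.27 ± 0.30, adjusted p = 0.0402). The Col1a2 groups did not overlap in any library.

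Imprinted growth genes are expressed only from the copy of one parent and are most active in young tissue. Of 18, H19, Plagl1, Peg3, Meg3, Igf2, Grb10, Rian and Cdkn1c rose and 10 did not pass, but only 2 (H19 and Rian) passed without mature replicate 3. At an unadjusted p under 0.05, 13 were higher and 0 lower in both fits, and the median log2 difference was 0.91 with and 0.90 without that library. H19, a long noncoding RNA beside Igf2 (chromosome 7, 142575529 to 142578143), measured 674, 573, 691 and 603 CPM in immature and 209, 286, 166 and 226 CPM in mature libraries. Every immature library was well above every mature one. The log2 difference came to 1.52 ± 0.22 (adjusted p = 3.41e-04), with a range of 1.40 to 1.66 when single libraries were left out. Igf2, a fetal growth factor, measured 33.5, 19.6, 33.8 and 38.7 CPM against 11.3, 19.9, 5.55 and 15.5 CPM, and these groups overlapped by 1 library. The gene's log2 difference was 1.25 ± 0.29 (adjusted p = 0.0351), and 1.01 without mature replicate 3 (adjusted p = 0.115). The count for the list was 1 without immature replicate 4 and 8 without mature replicate 2.

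**Figure D4:**
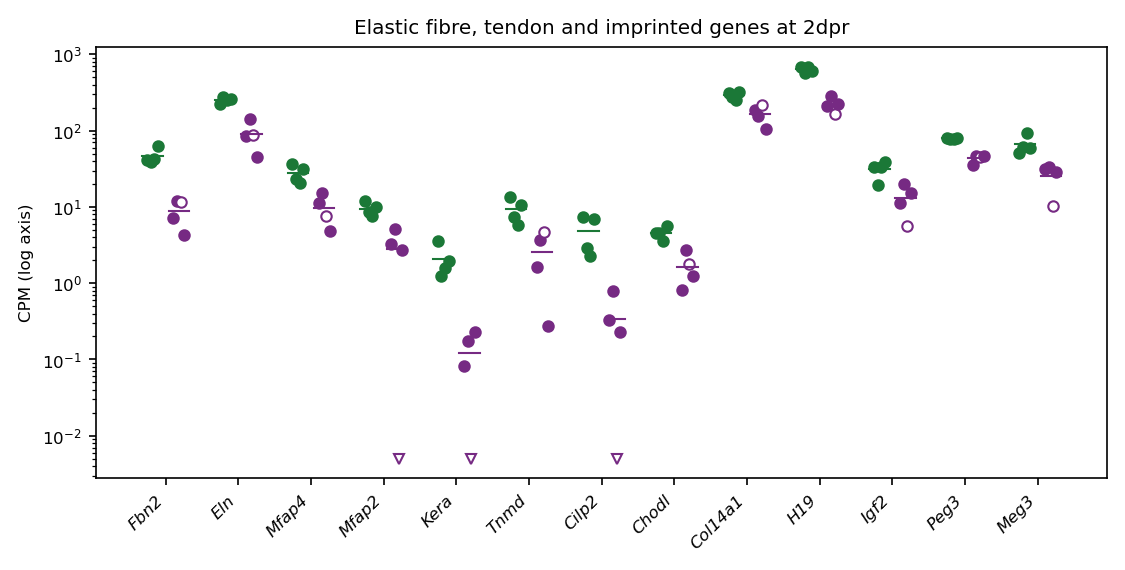
Each point is the CPM (log axis) of 1 library, immature in green and mature in purple, with mature replicate 3 open and the group mean as a bar. Triangles at the bottom mark 0 reads, which mature replicate 3 had for Mfap2, Kera and Cilp2. Fbn2, Eln and H19 were separated by age in every library, and Igf2 overlapped.

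Bone-forming genes varied widely within each age. Of 18 osteoblast genes edgeR called 0, DESeq2 called 5 and limma voom called 0, with 8 higher and 0 lower at an unadjusted p under 0.05. Without mature replicate 3, Bglap, Bglap2 and Dmp1 passed, all higher in immature mice. Bglap, osteocalcin, measured 54.4, 16.7, 24.3 and 136 CPM in immature and 10.5, 2.69, 21.6 and 1.02 CPM in mature libraries. Mature replicate 3 had the highest mature level and lay within the immature range. The Bglap log2 difference was 2.75 ± 0.71 with it (adjusted p = 0.0554) and 3.67 ± 0.80 without it (adjusted p = 0.0247). Bglap and Bglap2 are neighbouring near-identical copies, so reads may be split between them. Of 17 cartilage genes edgeR, DESeq2 and limma voom each called 0, with 2 higher at an unadjusted p under 0.05. Col10a1, the collagen of hypertrophic cartilage, measured 50.2, 3.26, 39.3 and 7.09 CPM against 0, 6.15, 0 and 0 CPM and did not pass (adjusted p = 0.0641).

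Genes of innate immune cells gave 1 call. Of 24 macrophage and monocyte genes edgeR, DESeq2 and limma voom each called 0, with 1 higher and 4 lower at an unadjusted p under 0.05, and their summed level ran from 11023 to 11956 CPM in immature and from 11375 to 12761 CPM in mature libraries. Of 18 neutrophil genes only Il1r2, a decoy receptor for interleukin 1, passed. It measured 13.7, 25.0, 28.5 and 12.1 CPM in immature and 43.9, 25.6, 80.0 and 93.9 CPM in mature libraries (log2 difference -1.62 ± 0.40, adjusted p = 0.0469), and it lost that call without mature replicate 3 (adjusted p = 0.113), mature replicate 4 or immature replicate 1, 2 or 4. Summed neutrophil levels ran from 1620.2 to 3982 CPM in immature and from 1052 to 6341 CPM in mature libraries, and mature replicate 3 was the highest.

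Of 36 cytokine and chemokine genes, only Cxcl3, a neutrophil-attracting chemokine, passed by edgeR. DESeq2 called 1 and limma voom 5, all lower in immature mice, while 12 were lower and 0 higher at an unadjusted p under 0.05, and 13 lower without mature replicate 3 (median log2 difference -0.43). Cxcl3 measured 15.0, 18.1, 18.2 and 10.9 CPM in immature and 41.3, 18.5, 63.7 and 69.0 CPM in mature libraries. Mature replicate 2 lay just above the immature range and the other 3 well above it. The log2 difference was -1.63 ± 0.36 (adjusted p = 0.0258), and -1.47 without mature replicate 3 (adjusted p = 0.0605), and the call was also lost without immature replicate 1 or 4 or mature replicate 4. Ccl8, a monocyte chemokine, measured 36.2 to 205 CPM in immature and 151 to 524 CPM in mature libraries and did not pass (log2 difference -1.41 ± 0.42, adjusted p = 0.120). All 27 interferon-induced genes had a log2 difference below 0 (median -0.41), but edgeR, DESeq2 and limma voom called 0. By edgeR, 0 passed an unadjusted p of 0.05 with mature replicate 3 and 11 without it. By the mean log2 level of this list, immature replicate 1 was far the lowest library, at 4.25. The other immature libraries, at 5.85 to 6.16, lay within the mature range of 5.14 to 6.59.

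Lymphocyte genes gave 1 call. Of 15 plasma cell and immunoglobulin constant genes, Ighg3 fell by edgeR, DESeq2 called 4 lower and limma voom called 0, with 9 lower and 0 higher at an unadjusted p under 0.05 and 5 lower without mature replicate 3. Ighg3, the constant region of IgG3, had 0 reads in every immature library and 74, 0, 50 and 56 reads in mature libraries (adjusted p = 0.0479). Against a floor of 3 reads per library it was at least 11.4-fold lower in immature mice, and it lost its call without mature replicate 3 (adjusted p = 0.106), mature replicate 1 or any 1 immature library. Igkc, the kappa light chain, measured 9.84, 4.73, 6.37 and 17.0 CPM in immature and 58.6, 19.1, 90.3 and 22.4 CPM in mature libraries. Its log2 difference of -2.33 ± 0.60 did not pass (adjusted p = 0.0539). Of 21 T and NK cell genes and 17 B cell genes edgeR and limma voom called 0, DESeq2 called 2 in each list, and 6 and 4 were higher at an unadjusted p under 0.05. Rag1, which rearranges antigen receptor genes in lymphocyte precursors, measured 37.0, 1.01, 3.60 and 6.16 CPM in immature and 2.15, 0.606, 0 and 1.43 CPM in mature libraries, and Cd8b1 measured 7.75 CPM in immature replicate 1 and 0 to 1.51 CPM elsewhere. Immature replicate 1 thus held most of the reads of both genes.

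Lists of other cells that a rib piece could hold gave 0 calls by edgeR in the endothelial, Schwann cell, mast cell, erythroid, keratinocyte, lung epithelium, mesothelium, MHC class II, cell cycle and stromal progenitor lists. DESeq2 called 2 stromal progenitor genes and limma voom 2, both higher in immature mice, and limma voom called 2 endothelial genes lower. At an unadjusted p under 0.05, 8 of 18 stromal progenitor genes were higher and 0 lower, against 6.50% of all genes higher. By the mean log2 level of that list, every immature library lay above every mature one (lowest immature 6.37, highest mature 6.198). The other lists named here had between 0 and 3 members higher and between 0 and 2 lower at that unadjusted p. Without mature replicate 3, edgeR called 1 stromal progenitor gene higher, and 4 of 11 MHC class II genes were lower at that unadjusted p. Of 10 keratinocyte and 10 lung epithelium genes, 5 and 7 were in the table of tested genes. Mitochondrial transcripts took 1.91% to 3.05% of counts in immature and 2.46% to 3.72% in mature libraries, and 3 genes of complex I that were chosen after their values were seen (mt-Nd2, mt-Nd4 and mt-Nd5) fell. For mt-Nd2 the values were 259.8, 283, 366 and 255 CPM against 1015, 805, 484 and 482 CPM (log2 difference -1.26 ± 0.25, adjusted p = 0.00982), and the call was lost without immature replicate 4 or mature replicate 1. RNA quality was not among the values used here, and the part of mitochondrial content in the other results was not tested.

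Several genes outside the lists had large differences by the naming rule. Gm15446, a protein-coding gene on chromosome 5 (109923400 to 109943936), measured 0.419, 0.225, 0.0838 and 0.116 CPM in immature and 6.69, 6.76, 18.3 and 7.54 CPM in mature libraries. On the log2 scale the difference was -5.48 ± 0.73 (adjusted p = 1.05e-04), and -5.00 without mature replicate 3. Gm7609 and A530032D15Rik, a pseudogene and a coding gene between 85083069 and 85213786 on chromosome 1, fell by 3.11 and 2.26 on the log2 scale, and as members of a family of close copies their counts are uncertain. Gm38811, a noncoding RNA on chromosome 6 (51694309 to 51711081), had 13, 17, 32 and 21 reads in immature and 0 in all mature libraries, at least 8.57-fold higher against a floor of 3 reads per library. Aqp4, the water channel of muscle membrane, measured 6.91, 5.40, 7.54 and 14.3 CPM in immature and 1.40, 1.56, 1.78 and 0.370 CPM in mature libraries (log2 difference 2.84 ± 0.47, adjusted p = 0.00168). Prkg1, the cGMP-dependent protein kinase, measured 14.7, 15.6, 20.02 and 14.4 CPM against 31.3, 25.7, 65.4 and 64.6 CPM (log2 difference -1.53 ± 0.25, adjusted p = 0.00153). All of these except A530032D15Rik, which lost its call without immature replicate 1 or 4, were called whichever library was left out.

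The change of the age difference between stages was tested directly. Against 0dpr the age difference changed for 13 genes (0.0613%), 5 upwards and 8 downwards, and against baseline for 2 (0.00943%). By DESeq2 the counts were 111 and 59, and at an unadjusted p under 0.05 by edgeR they were 2382 and 2005 genes. Myh3 was 1.81 higher in immature mice on the log2 scale at 2dpr and -1.17 ± 0.44 at 0dpr, a change of 2.98 ± 0.60 (adjusted p = 0.0405). Sln changed by 2.78 ± 0.55 from a difference of -0.70 ± 0.38 at 0dpr (adjusted p = 0.0405). Without mature replicate 3 the adjusted p of both changes was 0.0702, and no gene passed for the change from 0dpr with only the libraries compared or with limma voom. Trim63 was 1.02 ± 0.31 at baseline and -1.41 ± 0.32 at 2dpr, and this change of -2.43 passed with mature replicate 3 (adjusted p = 0.0441) and without it (adjusted p = 0.0145). No gene passed for the change from baseline without immature replicate 2, 3 or 4, with the replicate number as a block, with filterByExpr or with only the libraries compared, so the Trim63 call was lost in each of these. The change of Ankrd10, a gene chosen after its values were seen, from 0.31 at 0dpr to -0.74 at 2dpr passed in both fits (adjusted p = 0.0168 and 0.0485).

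Other genes differed at several stages. At baseline 0.585% and at 0dpr 0.726% of genes passed between the ages, and of the 133 genes called at 2dpr, 23 also passed at baseline, 27 at 0dpr, 13 at both and 96 at neither. The same fit called 0 genes between the ages at 5dpr and 2 at 14dpr. Each stage has its own libraries. Eln was 1.77 ± 0.32 higher in immature mice at baseline (adjusted p = 0.00473), 2.11 ± 0.32 at 0dpr (adjusted p = 2.23e-04) and 1.497 at 2dpr. H19 was 1.34 ± 0.22 higher at baseline (adjusted p = 0.00184) and 0.31 ± 0.22 at 0dpr, where it did not pass. Fbn2 was 0.07 ± 0.36 at baseline and 1.85 ± 0.39 at 0dpr (adjusted p = 0.0109). Ankrd1 was -1.66 ± 0.25 at 0dpr (adjusted p = 1.99e-04), close to its value at 2dpr, and -0.43 ± 0.25 at baseline. Thrsp was 0.73 ± 0.46 at baseline and 0.04 ± 0.45 at 0dpr, and neither passed. For none of these named genes did the change of the age difference from 0dpr or baseline to 2dpr pass. Among the 133 genes called at 2dpr, that change passed for 3 against 0dpr and for 1 against baseline.

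**Figure D5:**
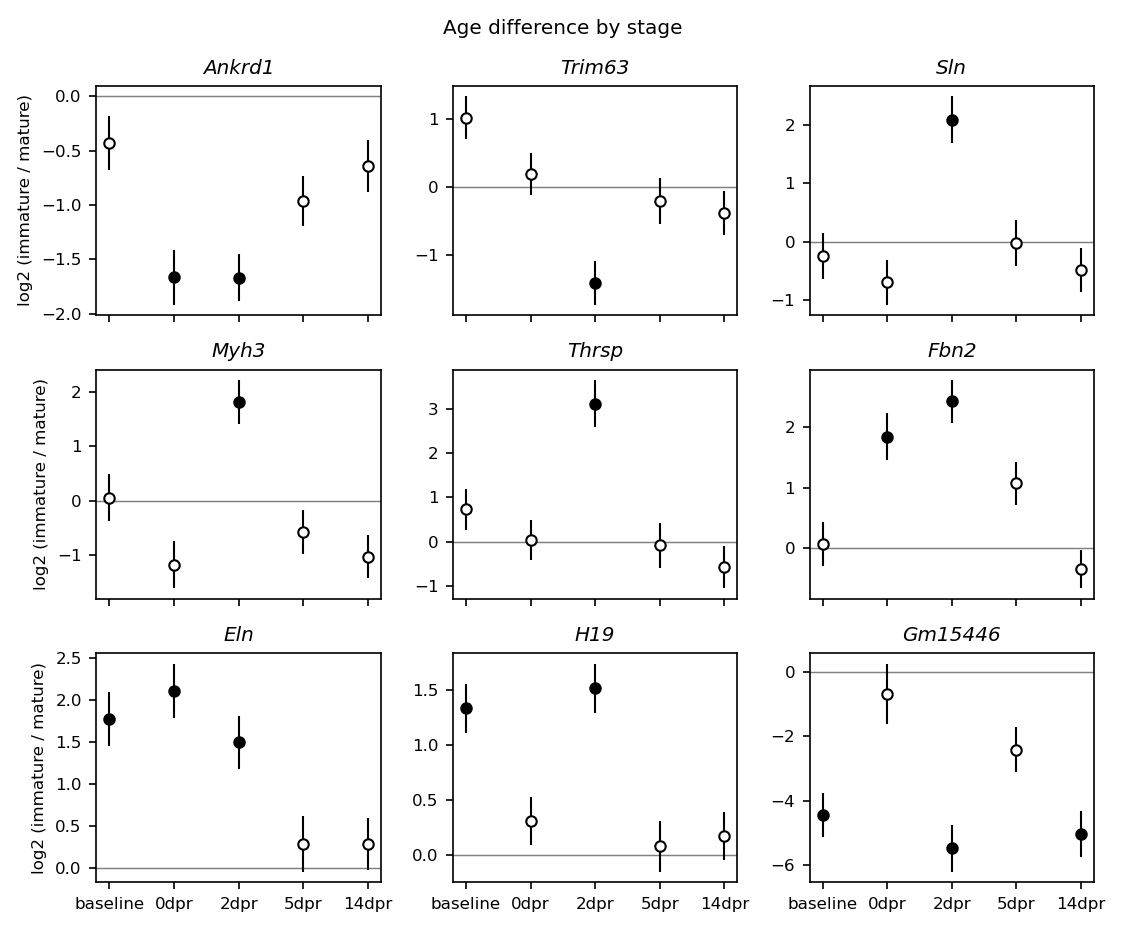
Each panel shows the log2 difference (immature minus mature) of 1 gene at the 5 stages, with its standard error as a bar and the line at 0 in grey. Filled points passed an adjusted p of 0.05 by edgeR, open points did not, and the vertical scale differs between panels. Sln, Myh3 and Thrsp passed only at 2dpr, though for Thrsp the change between stages did not pass. Eln passed at baseline, 0dpr and 2dpr.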

How the data were processed

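Bulk RNAseq of callus from immature and mature mice at 2dpr (4 libraries each) was analysed. The authors prepared stranded libraries and, per the labels, aligned reads with STAR 2.5.2a to GRCm38. The deposited counts are whole reads per gene without normalization. The deposited normalized signal equals TMM-scaled CPM and served only for that check. The authors' filtered set of genes was used after 1 construct entry was dropped. Counts were fitted with edgeR 4.0.16 (R 4.3.3) quasi-likelihood models with TMM over 39 libraries in 10 groups. Replicate 2 of the mature mice at 5dpr was not used here. P-values were adjusted by Benjamini-Hochberg over 21203 genes, with a threshold of 0.05. Alternatives included DESeq2 1.42.0 and limma 3.58.1 voom. On simulated data for the 2dpr comparison with 21203 genes, 93% of 4-fold and 62% of 2-fold changes were called. Of the 164 calls made there, 9 were of unchanged genes. The simulation changed only genes of at least 1 CPM and did not copy the missing reads of mature replicate 3. These shares therefore need not hold for the real libraries.

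The members and the gene lists were chosen with earlier results of these data known. Named genes were the 12 largest differences in each direction with at least 1 CPM and no overlap, called list members (or the 2 with the smallest p where fewer than 2 passed), up to 12 genes called in every fit that left out a library, and up to 5 genes called from the 8 libraries alone. Not all are printed. Bounds use 3 reads per library and cover counting error only. No 2 libraries were duplicates (the spread was at least 12.7 times counting noise). Sequencing runs are mentioned in the study without being assigned to libraries, so run and group cannot be told apart.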

Additional observations from a re-analysis of the deposited data

Results flagged for a closer look

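Of 195 groups of 4 libraries examined, 18 had 1 library whose gap to the others exceeded Dixon's 95% critical value. Chance gives about 1 in 20 where groups are independent and normally distributed. The groups here share libraries and hold genes named for their differences, so the 18 cannot be set against that rate. In immature replicate 1 these were Lck at 13.0 CPM, Ifit2 at 25.2 CPM, Cd8b1 at 7.75 CPM and Rag1 at 36.95 CPM. In immature replicate 3 they were Col3a1 at 9207 CPM and the mitochondrial share at 3.05% of counts. In immature replicate 4 they were Fbn2 at 63.4 CPM and Fasn at 939.7 CPM. In mature replicate 2 Col10a1 stood apart at 6.15 CPM. In mature replicate 3 they were Sfn at 0 CPM, Zfp932 at 31.4 CPM, Gm15446 at 18.3 CPM and the number of genes with reads, 14213. In mature replicate 4 they were Card14 at 45.8 CPM, Col11a2 at 9.62 CPM, Cnksr1 at 74.2 CPM, Mustn1 at 875 CPM and the mitochondrial share at 2.46%.

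The age difference changed between stages for 3 genes of the muscle lists, by edgeR's test of the change. Myh3 changed by 2.98 and Sln by 2.78 on the log2 scale from 0dpr to 2dpr. Trim63 changed by -2.43 from baseline to 2dpr. Without mature replicate 3, neither Myh3 nor Sln passed that test (adjusted p = 0.0702 for both). The Trim63 call was lost without immature replicate 2, 3 or 4.

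Kdm5d with 434 reads and Eif2s3y with 480 reads in immature replicate 3 lie outside the filtered table, and the other 7 libraries at 2dpr had 0 reads of both.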

How the results depend on the processing

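Across 97 named genes and 17 alternatives, 1298 of 1647 values kept their direction and side of the threshold, 290 lost the call, 59 gained it and 0 changed direction. The number of genes called at 2dpr (133) was 428 with DESeq2 (269 higher, 159 lower), 286 with a muscle covariate (151 higher, 135 lower), 4 when the 8 libraries were fitted alone (2 higher, 2 lower) and, in an alternative chosen after seeing the data, 16 from the 2dpr libraries without mature replicate 3 (12 higher, 4 lower). With limma voom and sample weights 81 were lower. Leaving out 1 library gave 27 to 286 calls, 20 to 168 higher and 7 to 118 lower. For the change from 0dpr the count of 13 became 111 with DESeq2, 21 with all genes of at least 1 count, 22 with the muscle covariate, 0 with only the libraries compared, 0 with limma voom and 2 to 32 with a library left out. For the change from baseline the count of 2 became 59 with DESeq2, 190 with limma voom, 12 with the muscle covariate, 4 with all genes of at least 1 count, 0 with filterByExpr, 0 with only the libraries compared and 0 to 15 with a library left out. The cause was not tested.

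With the replicate number as a block (replicate block), 140 genes were called at 2dpr, 110 higher and 30 lower, and the changes from 0dpr and baseline gave 8 and 0. Same-numbered libraries did not deviate together (correlations -0.108 to -0.003, against -0.042 to 0.116 for other pairs). So few correlations cannot tell whether same-numbered libraries share an animal or a day, and the labels do not say. In mature replicate 3, 376 of 11946 genes at 5 CPM and above in the other libraries also had 0 reads, against 0 to 2 genes in each other library, and its lower number of genes was seen at equal depth.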
